A study of Macaca fascicularis with 23 samples.

Results

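Ciprofibrate is a fibrate, a lipid-lowering drug and an agonist of the nuclear receptor PPAR-alpha. The comparison described here sets 4 cynomolgus monkeys (Macaca fascicularis) that received 150 mg/kg/day of ciprofibrate over 15 days against 3 monkeys that received vehicle over the same time, so it rests on 7 of the 23 arrays of the series. Samples were assigned to groups by their titles, and the comparison was chosen with earlier results of these data known. The other 15-day groups were 4 animals each at 3, 30 and 400 mg/kg/day, and 2 vehicle animals and 2 animals at 400 mg/kg/day were taken at 4 days. Each array held liver RNA from a different animal, hybridised to a human gene array, so the replicates are animals and a probe set may bind its monkey transcript poorly. Strain, sex and age are not given in the labels used here, and dosing details beyond dose and duration are not either.

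PPAR-alpha senses fatty acids in the liver and, when a ligand binds, raises the transcription of genes for fatty acid uptake, for oxidation in mitochondria and peroxisomes, and for ketone body production. In rodents fibrates enlarge the peroxisome compartment and strongly induce its oxidation enzymes, while primate liver is known for a weaker peroxisomal response. The comparison asks which liver transcripts differ at the second highest dose tested, below the top dose of 400 mg/kg/day.

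Values are probe set intensities as scaled by the authors, and differences are on the log2(intensity + 16) scale, which understates the change of dim probe sets. The mean correlation of an array with the rest of its own group was 0.890 to 0.906 for vehicle and 0.888 to 0.900 for 150 mg/kg/day. The ratio of the 5' to the 3' ACTB probe set, a sign of RNA integrity, was 0.574 ± 0.033 in the 3 vehicle animals and 0.640 ± 0.135 (SD) in the 4 treated animals. Of 13 hepatocyte marker genes measured, 0 lay below the intensity that marks the 40th percentile of all probe sets (39.7). Their summed intensity was 95762 to 106380 in vehicle and 75181 to 107420 in treated animals, with overlap between the groups. In whole liver, fewer cells of a type and less RNA per cell cannot be told apart.

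At 150 mg/kg/day the liver showed more transcript of mitochondrial fatty acid oxidation enzymes, of the fatty acid desaturase FADS2, of the oxidoreductases NQO1 and AKR1B10 and of the metallothionein MT1G. Less transcript was seen for the exosome subunit EXOSC2, the protease inhibitor TIMP1 and the plasma protease HGFAC. Of 12558 probe sets tested, 34 (0.271%) passed limma's moderated test at a Benjamini-Hochberg adjusted p under 0.05, which is what "called" means below. Of these 27 were higher and 7 lower in treated animals. In all 34 the treated and vehicle animals did not overlap, which selection by a difference between the same animals favours. Among all genes, 4.19% had all treated animals above vehicle and 4.56% had them below. The 34 probe sets named 20 genes that rose and 6 that fell, including ZDHHC18 through its second probe set. Another 6 called probe sets, all higher by 0.81 to 2.27, named several genes and 1, lower by 2.37, named none; these are in no gene count or list below. Counting each gene by its brightest probe set, 20 of 8226 genes (0.243%) rose and 5 (0.0608%) fell. The median difference over all 8226 genes was −0.04. The count depended on the estimate of spread and on individual animals: it was 6 without an intensity trend in the variance, 7 when only the 7 arrays were fitted, 11 without vehicle animal 1, 15 without vehicle animal 2 and 15 without treated animal 2. A filter on dim probe sets gave 51 calls, of which 33 were among the 34. In the 7 fits that left out 1 animal, the calls of ACAA2, HADHA, ACAA1, NQO1, EXOSC2 and REST were never lost and those of HADHB, CD63 and DHRS7 were lost in 1. The call of TIMP1 was lost in all 7. Those of AKR1B10, RARRES2, MAF, PSMA3, ACADVL, NSDHL and GRINA were lost in 6, and of CYB5A and ATXN10 in 5. Those of ACADS and HGFAC were lost in 4, of FADS2, SLC27A2 and LITAF in 3, and of MT1G in 2.

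**Figure D1:**
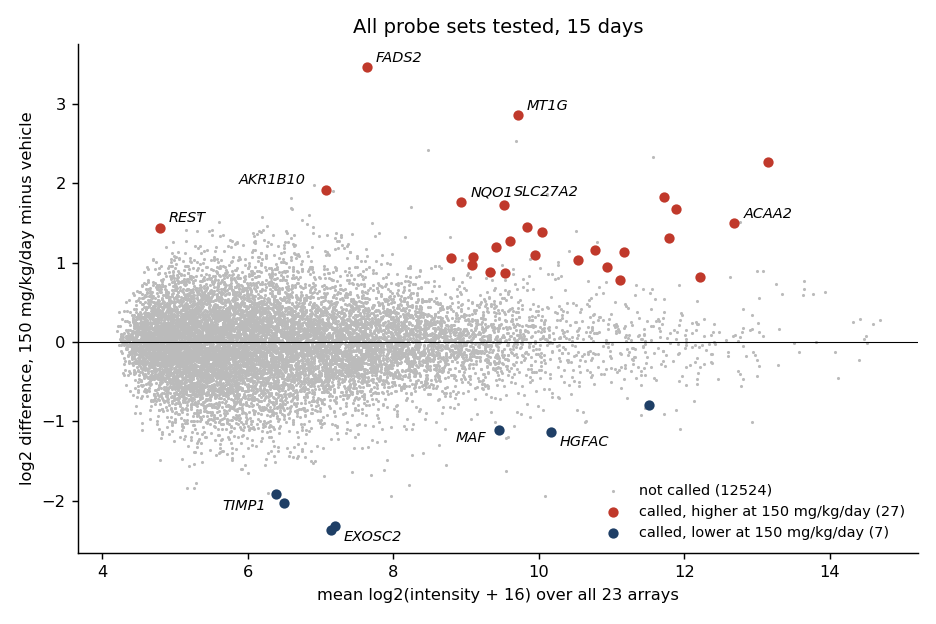
Each point is 1 of 12558 probe sets, with its mean log2(intensity + 16) over the 23 arrays on the x axis and its log2 difference between 150 mg/kg/day and vehicle on the y axis. Coloured points are the 34 called probe sets, 27 above the line and 7 below it, and FADS2 and MT1G lie highest among them.

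Fatty acids are oxidised in the mitochondrial matrix by a spiral of 4 kinds of step: acyl-CoA dehydrogenases, enoyl-CoA hydratases, hydroxyacyl-CoA dehydrogenases and thiolases. Of 19 genes of mitochondrial fatty acid oxidation measured, 5 rose and 0 fell, 18 had a positive difference, and the median was 0.79. Over all genes 0.243% rose and 0.0608% fell. In 9 of the 19 (47.4%) all treated animals lay above all vehicle animals, against 4.19% of all genes. In 1 of the 19 (5.26%) they lay below, against 4.56% of all genes. The gene lists here and below were chosen with earlier results of these data known, so such shares are description only.

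The thiolase ACAA2, which carries out the last step of the spiral, had intensities of 2814, 3440 and 5338 in the vehicle animals. In treated animals 1 to 4 they were 13151, 9486, 8463 and 11777. The lowest treated animal stood well above the highest vehicle animal, and the difference was 1.50 ± 0.20 (SE; limma adjusted p = 0.00161). HADHA and HADHB, the alpha and beta subunits of the trifunctional protein that handles long-chain intermediates, rose as well. HADHA had intensities of 496, 443 and 798 in vehicle against 1532, 1734, 1344 and 1360 in treated animals, a difference of 1.38 ± 0.22 (adjusted p = 0.00371). HADHB had 1234, 2470 and 3183 against 7414, 7843, 5386 and 6968, a difference of 1.67 ± 0.29 (adjusted p = 0.00942). The groups were separate for each subunit, and the vehicle animals spread more widely than the treated animals on a relative scale.

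Acyl-CoA dehydrogenases start each turn of the spiral, each for its own range of chain lengths. The short-chain enzyme ACADS had intensities of 468, 587 and 652 in vehicle and 1937, 2119, 964 and 1521 in treated animals (1.45 ± 0.28, adjusted p = 0.020). Treated animal 3 was the lowest of the 4 here, though still above every vehicle animal. The very-long-chain enzyme ACADVL rose by 0.78 ± 0.16 (adjusted p = 0.032). Its mean intensity was 1579 (SD 280, n = 3) under vehicle and reached 2698 (SD 226, n = 4) under treatment. The medium-chain enzyme ACADM went from 7942 to 13150 on average with separate groups, and its difference of 0.73 ± 0.18 was not called (adjusted p = 0.108). The long-chain enzyme ACADL ran the other way, at 51.8 against 26.6, in a dim probe set that was not called (−0.79 ± 0.42, adjusted p = 0.608).

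Electrons from these dehydrogenases pass through the electron transfer flavoprotein, made of ETFA and ETFB, to its dehydrogenase ETFDH. None of the 3 genes was called, with differences of 0.76 ± 0.18 for ETFA, 0.93 ± 0.28 for ETFB and 1.04 ± 0.24 for ETFDH (adjusted p = 0.0773, 0.207 and 0.0625). The treated and vehicle animals were separate for ETFA and ETFDH and overlapped for ETFB. ETFDH was called with the filter on dim probe sets (adjusted p = 0.0394) and without treated animal 3 (adjusted p = 0.0214). No gene for the entry of fatty acids into mitochondria was called by a probe set that names it alone. CPT1A, the carnitine palmitoyltransferase that controls entry, had 44.7, 147 and 183 in vehicle and 117, 190, 79.7 and 278 in treated animals, which overlapped. A brighter probe set that names CPT1A together with other genes was called at 1.27 ± 0.21 (adjusted p = 0.00593), and which of its genes it measures is not known. The carnitine carrier SLC25A20 had a difference of 0.79 ± 0.26 (adjusted p = 0.279) with separate groups, and the plasma membrane carnitine transporter SLC22A5 one of 0.84 ± 0.39 (adjusted p = 0.529) with overlapping groups.

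**Figure D2:**
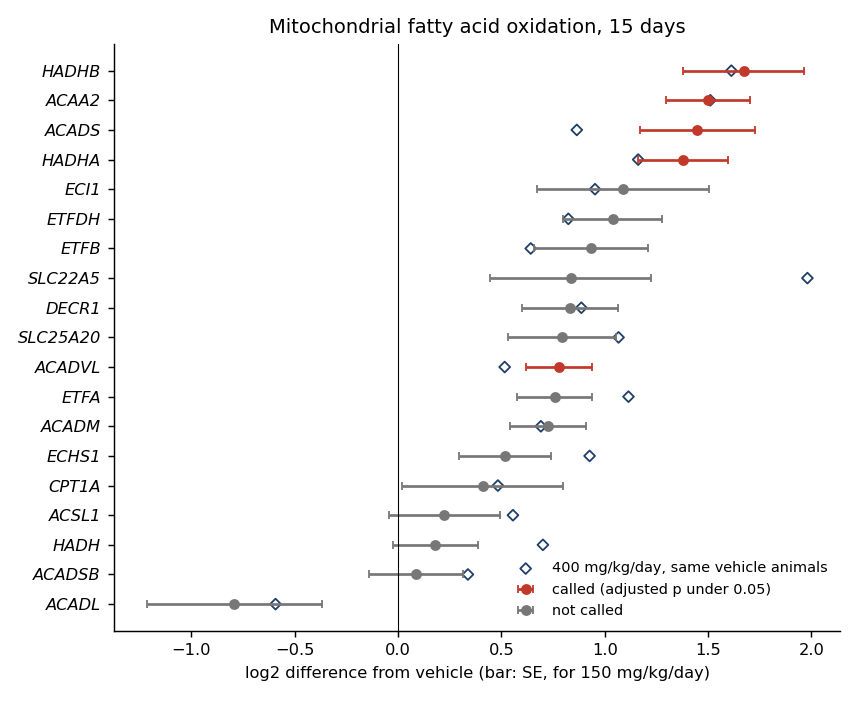
Points give the log2 difference between 150 mg/kg/day and vehicle for the 19 measured genes of mitochondrial fatty acid oxidation, with SE bars, and open diamonds give the difference of 400 mg/kg/day from the same vehicle animals. The 5 called genes lie between 0.78 and 1.67, and ACADL is the only gene of the 19 below 0.

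Across the 4 treated animals the median difference of the 19 genes from the vehicle mean was 0.93, 0.94, 0.50 and 0.92. Animal 3 was thus lower than the others, and it was also the lowest over the 22 measured PPAR-alpha targets, at 0.15 against 0.57, 0.80 and 0.77. Among those 22 targets, 6 rose and 0 fell, the median was 0.56, and all treated animals lay above vehicle in 9 (40.9%). Over all genes 0.243% rose and 4.19% had all treated animals above. The 6 were HADHA, HADHB, ACADVL, ACAA1, FADS2 and SLC27A2, so 3 of them also belong to the oxidation list.

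The fatty acid carriers held the largest differences of uptake and binding. SLC27A2, a very-long-chain acyl-CoA synthetase and fatty acid transporter, had intensities of 270, 297 and 581 in vehicle and 1136, 1812, 917 and 1199 in treated animals, a rise of 1.72 ± 0.33 (adjusted p = 0.0161). FABP1, the liver fatty acid binding protein, had 673, 1264 and 1548 against 4738, 9823, 3404 and 6060. Its groups were separate and its means differed 5.17-fold, but with wide spread in both groups the difference of 2.33 ± 0.53 missed the threshold (adjusted p = 0.0592, and 0.0394 with the filter on dim probe sets).

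Among PPAR-alpha targets measured by a probe set of their own, several had small differences. The pyruvate dehydrogenase kinase PDK4 had −0.46 ± 0.38, the lipid droplet protein PLIN2 0.24 ± 0.41 and the acyl-CoA synthetase ACSL1 0.22 ± 0.27, all with overlapping groups (adjusted p = 0.788, 0.920 and 0.867). The pantetheinase VNN1 had 84.1, 95.8 and 126 in vehicle and 159, 217, 126 and 218 in treated animals (0.72 ± 0.31, adjusted p = 0.471). Only treated animal 3 lay within the vehicle range. PPARA itself, the receptor, had 693, 549 and 612 in vehicle and 700, 895, 992 and 842 in treated animals, a difference of 0.46 ± 0.20 that was not called (adjusted p = 0.495) although the groups were separate.

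Peroxisomes oxidise very long and branched fatty acids. Of 12 peroxisomal oxidation genes measured, 1 rose and 0 fell, against 0.243% and 0.0608% of all genes. The median was 0.18. The gene that rose was ACAA1, the peroxisomal thiolase, with intensities of 972, 897 and 901 in vehicle and 1859, 2084, 1510 and 2233 in treated animals (1.03 ± 0.17, adjusted p = 0.00593). Its second probe set was also called, at 1.09 ± 0.23 (adjusted p = 0.0366). The multifunctional enzyme HSD17B4 had a difference of 0.92 ± 0.23 with separate groups and was not called (adjusted p = 0.0906). Its relative EHHADH, the bifunctional enzyme known as a strong PPAR-alpha target in rodents, was dim, with 14.0, 42.3 and 36.8 in vehicle against 29.2, 38.8, 3.7 and 34.2. Peroxisome assembly genes held 0 calls among 9, with a median of −0.19, and ketone body enzymes 0 among 3, with a median of 0.69.

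FADS2, the delta-6 desaturase that starts the synthesis of long polyunsaturated fatty acids, had the largest difference of any called probe set. Its intensities were 52.4, 35.1 and 23.5 in vehicle and 562, 581, 556 and 521 in treated animals. The treated animals were within a narrow band 15.0-fold above the vehicle mean, and the difference was 3.46 ± 0.63 (adjusted p = 0.0123). The call was lost without each of the 3 vehicle animals in turn, with adjusted p between 0.0507 and 0.0630. Of 16 genes of fatty acid and triglyceride synthesis measured, FADS2 was the only one called, against 0.243% called higher over all genes. The list median was 0.26. The lipogenic transcription factor SREBF1 had 464, 516 and 539 against 778, 758, 636 and 690 (0.49 ± 0.19, adjusted p = 0.390). The fatty acid synthase FASN had 516, 266 and 175 against 190, 51.0, 220 and 27.9 (−1.48 ± 0.60, adjusted p = 0.437), so the groups overlapped.

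In cholesterol synthesis, where the median was 0.03, 1 of 17 genes was called, against 0.243% called higher over all genes. That gene was NSDHL, which removes methyl groups from sterol precursors, with 284, 179 and 307 in vehicle and 571, 504, 508 and 575 in treated animals (1.06 ± 0.22, adjusted p = 0.032). Its differences from the same vehicle animals at 3, 30 and 400 mg/kg/day were 0.78, 0.39 and 1.05, with only the last called. CYB5A, the microsomal cytochrome b5 that gives electrons to desaturases and cytochromes P450, rose by 1.13 ± 0.24 (adjusted p = 0.0366) from a mean intensity of 1340 to 2944. A second probe set for CYB5A of lower intensity did not share this difference (0.23 ± 0.19, adjusted p = 0.798).

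Genes of oxidative stress defence are often read out by NQO1, a quinone reductase, and AKR1B10, an aldo-keto reductase. NQO1 had 294, 197 and 156 in vehicle and 751, 651, 833 and 764 in treated animals, a rise of 1.76 ± 0.25 (adjusted p = 0.00167). The treated animals clustered tightly and stood 3.48-fold above vehicle. NQO1 remained called in the 7 fits that left out 1 animal and in 11 other fits of its probe set. AKR1B10 had 22.4, 41.3 and 36.5 against 103, 191, 255 and 156, a rise of 1.92 ± 0.40 (adjusted p = 0.0351). Its call was lost in 6 of the 7 fits that left out 1 animal. Over the list of 28 oxidative stress and NADPH genes, these were the 2 that rose, 0 fell, and the median was 0.17. The share called higher over all genes was 0.243%. Thioredoxin, TXN, had 668, 682 and 690 against 878, 1063, 864 and 1030, separate groups with a difference of 0.48 ± 0.19 that was not called (adjusted p = 0.422).

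Metallothioneins are small cysteine-rich proteins that bind zinc and copper and are induced by metals, glucocorticoids and oxidants. MT1G had intensities of 523, 500 and 841 in vehicle and 7472, 3077, 7153 and 2447 in treated animals. The treated animals formed a higher pair, 1 and 3, and a lower pair, 2 and 4, all above vehicle. The means differed 8.11-fold and the log2 difference was 2.86 ± 0.50 (adjusted p = 0.00938). The call was lost without vehicle animal 1 (adjusted p = 0.0611) and without vehicle animal 2 (adjusted p = 0.0630). The bright probe sets of MT1H, MT1F and MT1B also had separate groups but were not called. MT1H had 13651, 10183 and 11967 against 20375, 19337, 20085 and 20969, a difference of 0.77 ± 0.18 (adjusted p = 0.0719). MT1F had a difference of 0.59 ± 0.19 (adjusted p = 0.267) and MT1B one of 0.63 ± 0.20 (adjusted p = 0.257). MT1E, MT1X, MT2A and MT3 overlapped between the groups, with differences of 0.28, 0.27, 0.32 and 0.89. A second MT3 probe set ran the other way, at −0.24 ± 0.27, also with overlapping groups. Of the 11 genes of metallothioneins and zinc handling, 1 rose, 0 fell, 4 (36.4%) had all treated animals above vehicle, and the median was 0.40, against 0.243% called higher and 4.19% above over all genes. The zinc exporter SLC30A1 had a difference of −0.15 ± 0.21 (adjusted p = 0.891). Metallothionein genes are near-identical, so a probe set can bind several of them and the gene names are uncertain.

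**Figure D3:**
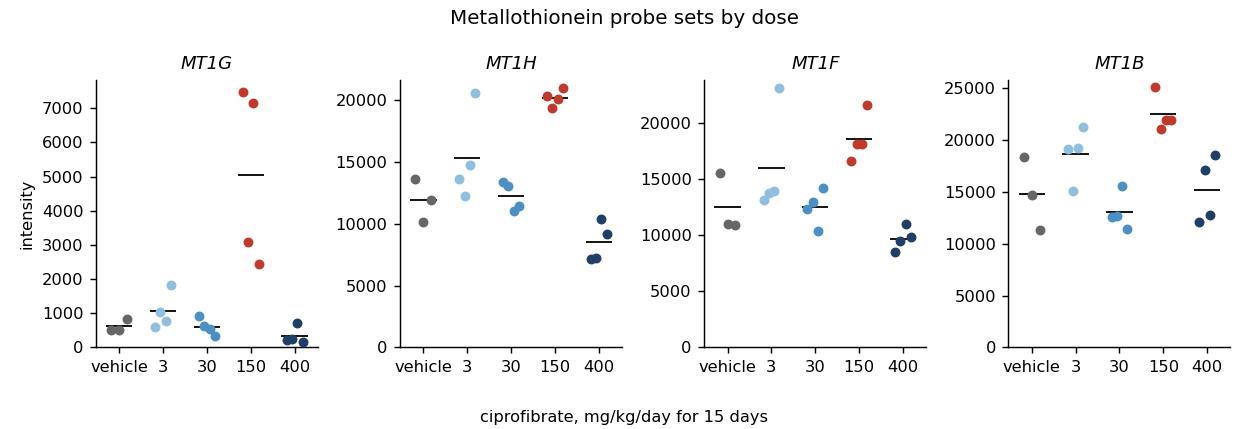
Points are the intensities of single animals at 15 days for 4 metallothionein probe sets, by dose, with lines at the group means. The 4 animals at 150 mg/kg/day lie above every vehicle animal in each panel, and for MT1G they lie above all other animals shown, with group means of 621 (vehicle), 1064, 600.0, 5037 and 339 in order of dose.

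Other genes that rose were not members of a metabolic list. CD63, a tetraspanin of lysosomes and exosomes, had 326, 438 and 450 in vehicle and 1136, 749, 1174 and 786 in treated animals (1.20 ± 0.20, adjusted p = 0.00593). Its differences from the same vehicle animals at 3, 30 and 400 mg/kg/day were 0.714, 0.835 and 1.135, with only the last called. LITAF, a lysosomal membrane protein, rose by 0.88 ± 0.16 (adjusted p = 0.0118), and the short-chain dehydrogenase DHRS7 by 1.07 ± 0.19 (adjusted p = 0.00947). GRINA rose by 0.94 ± 0.21 (adjusted p = 0.0499) and lay just inside the threshold. Dimmer second probe sets of LITAF and GRINA had differences of 0.033 ± 0.386 and 0.045 ± 0.458, with overlapping groups. ATXN10 rose by 0.97 ± 0.20 (adjusted p = 0.0366) in its brightest probe set, while its other probe sets, both dim, had differences of −0.08 and −0.47. In the brightest one the differences from vehicle at 3, 30 and 400 mg/kg/day were 0.84, 0.53 and 0.32.

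Of 36 proteasome subunits measured, 1 was called, against 0.243% called higher over all genes. It was PSMA3, a subunit of the outer ring of the core particle, with 457, 515 and 430 in vehicle and 842, 839, 787 and 995 in treated animals (0.87 ± 0.17, adjusted p = 0.0312). Its differences from the same vehicle animals at 3, 30 and 400 mg/kg/day were 0.95, 0.66 and 0.58, none of them called. In 11 of the 36 (30.6%) all treated animals lay above vehicle, against 4.19% of all genes, and the median was 0.26. The catalytic subunits PSMB6 and PSMB5 were among these, with differences of 0.67 ± 0.15 and 0.56 ± 0.15 that were not called (adjusted p = 0.0601 and 0.124). Of 57 oxidative phosphorylation genes 0 were called, and the median was 0.09. Among those genes ATP5PF, a subunit of ATP synthase, had the smallest p, with 15.9, 14.8 and 21.0 against 89.4, 74.8, 162 and 40.2 (1.58 ± 0.37, adjusted p = 0.0711).

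REST, a repressor of neuronal genes, was called at very low intensity, with 9.4, 7.4 and 8.7 in vehicle and 50.0, 50.3, 41.8 and 61.5 in treated animals (1.44 ± 0.20, adjusted p = 0.00161). The group means at 3, 30 and 400 mg/kg/day were 6.5, 9.2 and 8.1, close to vehicle. It was the only called probe set with an overall mean below the 40th percentile, so it was not tested with the filter on dim probe sets. When only the compared groups were fitted, REST was not called by limma. Its adjusted p was then 0.243 against vehicle, 0.0964 against 400 and 0.405 against 30 mg/kg/day.

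EXOSC2 fell most among named genes. It encodes an RNA-binding cap subunit of the exosome, the complex that trims and degrades RNA, and had 337, 318 and 258 in vehicle against 36.9, 42.3, 41.0 and 77.4 in treated animals. The treated mean was 6.15-fold lower, a difference of −2.32 ± 0.35 (adjusted p = 0.00266). EXOSC2 remained called in the 7 fits that left out 1 animal and in 11 other fits of this probe set. Its means at 3, 30 and 400 mg/kg/day were 173, 117 and 238. The difference of 150 from 30 mg/kg/day was not called by limma (−0.996 ± 0.323, adjusted p = 0.367). Its other probe set was dim in both groups, with means of 33.3 and 31.6, and had a difference of −0.13 ± 0.53. Of 8 genes of the exosome and RNA decay measured, EXOSC2 was the only one called, against 0.0608% called lower over all genes. EXOSC10, its catalytic nuclear subunit, ran the other way at low intensity, with 5.6, 4.5 and 20.7 against 55.0, 27.4, 48.5 and 87.4 (1.41 ± 0.39, adjusted p = 0.169).

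TIMP1, an inhibitor of matrix metalloproteinases, had 285, 173 and 143 in vehicle and 41.1, 34.1, 33.0 and 33.0 in treated animals, a difference of −2.03 ± 0.43 (adjusted p = 0.0366). All treated animals were near the intensity of 39.7 that marks dim probe sets, and the call was lost in all 7 fits that left out 1 animal, with adjusted p up to 0.231. The TIMP1 differences from the same vehicle animals at 3, 30 and 400 mg/kg/day were −1.43, −1.51 and −1.81, with only the last called. Over all genes 0.0608% were called lower. TIMP1 was the only one called among 16 markers of stellate cells and fibroblasts, whose median was −0.28. Their summed intensity was 2328 to 3085 in vehicle and 1801 to 2567 in treated animals, and the part of these cells in the TIMP1 result was not tested.

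HGFAC, a serine protease made by hepatocytes that activates hepatocyte growth factor, had 1731, 1808 and 1821 in vehicle and 1054, 645, 726 and 864 in treated animals (−1.13 ± 0.21, adjusted p = 0.0125). The vehicle animals were nearly equal and all treated animals lay well below them. RARRES2, which encodes the adipokine chemerin, fell by 0.79 ± 0.17 (adjusted p = 0.0404), with a mean of 4221 (SD 575) in vehicle and 2441 (SD 406) in treated animals. MAF, a transcription factor also expressed in sinusoidal endothelium and macrophages, fell by 1.11 ± 0.24 (adjusted p = 0.0404) from 1336 ± 266 to 613 ± 119. A dimmer MAF probe set had a difference of −0.74 ± 0.34 with overlapping groups and was not called. The second probe set of ZDHHC18, a palmitoyltransferase, fell by 1.91 ± 0.41 (adjusted p = 0.0395), while the brighter one by mean over all arrays had a difference of 0.00 ± 0.37. In the second probe set the differences from vehicle at 3, 30 and 400 mg/kg/day were −1.81, −0.625 and −2.24, with only the last called. The calls of RARRES2 and MAF were each lost in 6 of the 7 fits that left out 1 animal.

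Secreted plasma proteins were counted by list. HGFAC was the only one called among 29 coagulation and fibrinolysis genes (median −0.11), and 0 were called among 24 complement genes (median −0.16), 27 acute phase and other plasma proteins (median −0.08), and 13 genes of the growth hormone and IGF axis (median −0.09). Over all genes 0.243% were called higher and 0.0608% lower, so lists of this size would hold few calls at that share. SPP2, a secreted phosphoprotein, had 233, 359 and 261 in vehicle and 139, 81.1, 110 and 27.6 in treated animals (−1.63 ± 0.37, adjusted p = 0.0555). IGF1, the growth factor that the liver secretes under growth hormone, had 1277, 1378 and 1176 against 1031, 858, 633 and 360 (−0.91 ± 0.30, adjusted p = 0.281). The groups were separate for SPP2 and IGF1, though not called.

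Among 29 genes of xenobiotic metabolism that had a probe set of their own 0 were called, and the median was −0.06. At the shares over all genes, 0.243% called higher and 0.0608% lower, a list of this size would hold few calls. Probe sets naming several genes were called for the CYP3A subfamily of P450 enzymes, at 2.27 ± 0.36 and 1.16 ± 0.23 (adjusted p = 0.00371 and 0.0269), and for the UGT1A glucuronosyltransferases, at 0.81 ± 0.17 (adjusted p = 0.032). CYP2E1, a cytochrome P450 of ethanol and ketone metabolism, had 12166, 13431 and 15411 in vehicle and 3471, 12870, 7268 and 6495 in treated animals. Treated animal 2 lay within the vehicle range and the other treated animals far below it, and the difference of −1.003 ± 0.483 was not called (adjusted p = 0.549). In a second, dimmer CYP2E1 probe set the groups were separate, with 6126, 6671 and 6985 against 1933, 5060, 3643 and 2449, and the difference of −1.10 ± 0.44 was not called either (adjusted p = 0.435). CYP2C8 and CYP3A4, P450 enzymes of drug metabolism, had differences of 0.95 ± 0.25 and 0.66 ± 0.26 with separate groups (adjusted p = 0.127 and 0.414).

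Immediate early genes are transcription factors and regulators that respond within minutes to stress and growth signals. Of 28 measured 0 were called, against 0.243% called higher and 0.0608% lower over all genes, and the median was −0.32. In 6 (21.4%) all treated animals lay below vehicle, against 4.56% of all genes. Their summed intensity was 15631 to 17318 in vehicle and 10325 to 11496 in treated animals, without overlap, and the 4 treated animals had list medians of −0.56, −0.46, −0.42 and −0.46. CEBPB, a transcription factor of the acute phase, had 5128, 5731 and 4790 in vehicle and 3534, 3488, 2508 and 2176 in treated animals (−0.86 ± 0.22, adjusted p = 0.124). CEBPD and KLF6 had differences of −1.01 ± 0.31 and −0.88 ± 0.26 (adjusted p = 0.231 and 0.199). The list medians at 3, 30 and 400 mg/kg/day were −0.42, −0.38 and −0.32 against the same 3 vehicle animals, so the doses share those animals.

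Markers of other liver cells were not called apart from TIMP1, against 0.243% called higher and 0.0608% lower over all genes. The medians were −0.40 for 12 sinusoidal endothelial genes, 0.00 for 12 Kupffer cell and macrophage genes, −0.22 for 18 T and NK cell genes, −0.30 for 9 B and plasma cell genes, −0.31 for 12 neutrophil genes, −0.18 for 7 cholangiocyte genes and 0.08 for 5 red cell genes. The summed intensity of endothelial markers was 2754 to 3148 in vehicle and 1880 to 2919 in treated animals, and that of Kupffer cell markers 4280 to 5664 and 3731 to 4095. The Kupffer sums did not overlap. The monocyte and macrophage marker CD14 had 4154, 2204 and 2761 in vehicle and 2221, 2203, 2621 and 2053 in treated animals.

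**Figure D4:**
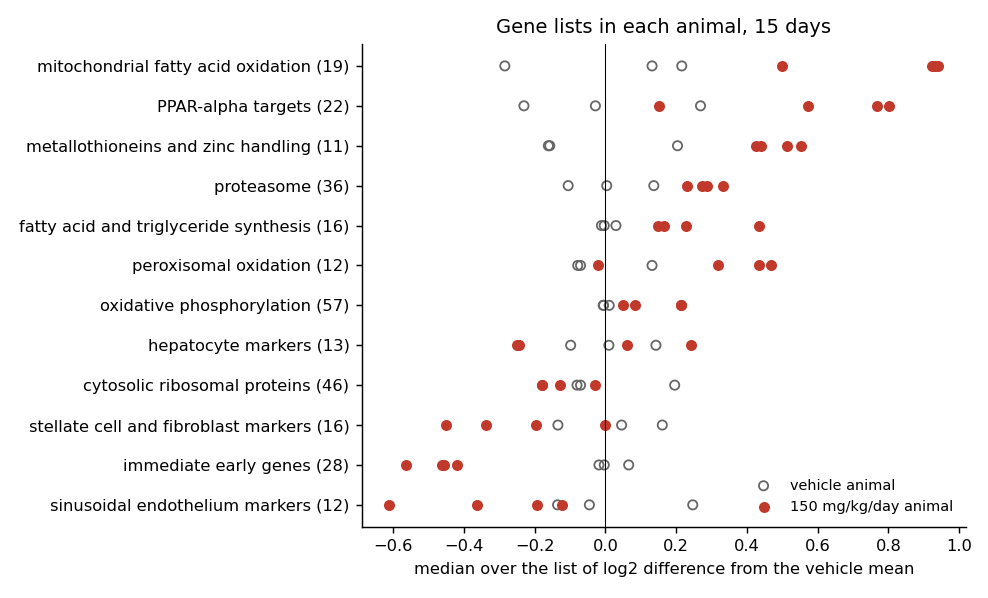
Each point is the median over a gene list of 1 animal's log2 difference from the vehicle mean, with open circles for the 3 vehicle animals and filled circles for the 4 animals at 150 mg/kg/day, and the number of measured genes in brackets. Treated animals lie at 0.50 to 0.94 for mitochondrial fatty acid oxidation and at −0.56 to −0.42 for immediate early genes, apart from the vehicle animals in each case, while hepatocyte markers overlap.

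The direct comparison of 150 with 400 mg/kg/day asks what differs between the upper doses. Its differences use no vehicle animal, but its SE and p-values take the spread from all 23 arrays, vehicle included. It called 24 of 12558 probe sets (0.191%), 13 higher and 11 lower at 150 mg/kg/day. With only the compared groups fitted, 2 were called. The fatty acid oxidation enzymes were not among them: of the 19 genes 0 were called and the median was −0.06. The difference was −0.01 ± 0.19 for ACAA2, 0.06 ± 0.27 for HADHB and 0.22 ± 0.20 for HADHA (adjusted p = 0.993, 0.978 and 0.838). The count of calls fell to 6 without treated animal 2 or 3 at 150 mg/kg/day and to 5 without animal 1 at 400 mg/kg/day.

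MT1G had the widest gap between the upper doses of any called probe set. It was 3.88 ± 0.46 higher at 150 than at 400 mg/kg/day (adjusted p = 0.00022), with mean intensities of 5037 and 339. MT1H was 1.26 ± 0.17 higher (adjusted p = 0.000511) and MT1F 0.94 ± 0.18 higher (adjusted p = 0.0265), and the median over the 11 genes was 0.72. The calls of MT1G and MT1H were kept in all 8 fits that left out 1 animal of either dose, and that of MT1F was lost in 5. REST was 1.48 ± 0.19 higher (adjusted p = 0.000279) and EXOSC2 1.90 ± 0.32 lower (adjusted p = 0.013). Over those 8 fits the call of REST was lost in 0 and that of EXOSC2 in 3. Against vehicle, the same 3 genes were not called at 400 mg/kg/day (adjusted p = 0.530 for MT1G, 0.988 for REST and 0.821 for EXOSC2).

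Some liver-secreted or drug-metabolising genes were higher at 150 than at 400 mg/kg/day. CYP2E1 had mean intensities of 7526 and 1479, a difference of 2.56 ± 0.45 (adjusted p = 0.0161) that was lost without animal 2 or 3 at 150 mg/kg/day (adjusted p = 0.0623 and 0.0627). HGFAC was 0.99 ± 0.19 higher (adjusted p = 0.0268), with means of 1787 in vehicle, 822 at 150 and 410.0 at 400 mg/kg/day. IGFALS, the acid-labile subunit that holds IGF in the circulation, was 1.54 ± 0.30 higher (adjusted p = 0.0268). PZP, a plasma protease inhibitor, was 2.31 ± 0.47 higher (adjusted p = 0.0312), and complement factor B, CFB, 0.70 higher (adjusted p = 0.0312). IGFALS had means of 1308 in vehicle, 919 at 150 and 286 at 400 mg/kg/day. Those of PZP were 1138, 1170 and 193, and those of CFB 5973, 5401 and 3327. Against vehicle, IGFALS, PZP and CFB were not called at 150 and were called lower at 400 mg/kg/day. In the 8 fits that left out 1 animal, the calls of HGFAC, IGFALS and CFB were lost in 6 and that of PZP in 5.

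Others were lower at 150 than at 400 mg/kg/day. ALDH1A1, a retinaldehyde dehydrogenase, had means of 2708 and 6677 (−1.28 ± 0.24, adjusted p = 0.0202). The fatty acid elongase ELOVL5 had means of 230 and 572 (−1.27 ± 0.24, adjusted p = 0.0268), and TXN means of 959 and 1789 (−0.87 ± 0.18, adjusted p = 0.0312). The integrin subunit ITGA6 was 0.86 ± 0.17 lower (adjusted p = 0.0268). Dimmer probe sets of ELOVL5 and ITGA6 were not called, with differences of 0.206 for ELOVL5 and −0.339, −0.109 and −0.185 for ITGA6. Among the same 8 fits, the call of TXN was lost in 7, those of ALDH1A1 and ITGA6 in 6 and that of ELOVL5 in 5. AKR1B10 and FADS2, which rose at 150 mg/kg/day, had differences of −1.69 ± 0.37 and −0.76 ± 0.58 from 400 mg/kg/day that were not called (adjusted p = 0.0558 and 0.787).

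**Figure D5:**
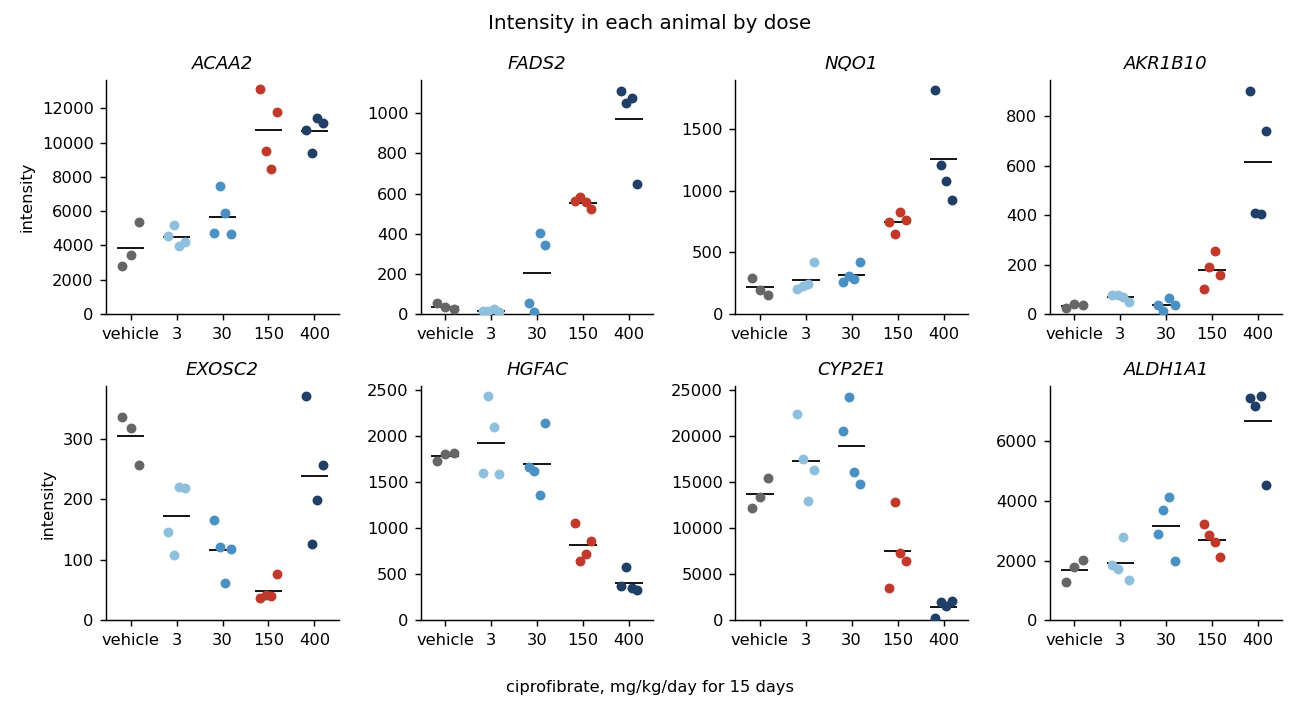
Points are the intensities of single animals at 15 days for 8 genes by dose, with lines at the group means. ACAA2 has means of 10719 at 150 and 10676 at 400 mg/kg/day, HGFAC steps down from 1787 through 822 to 410.0, and EXOSC2 is lowest at 150 mg/kg/day, with a mean of 49.4.

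Against 30 mg/kg/day, the next lower dose, 2 probe sets (0.0159%) were called: MT1G, 2.96 ± 0.46 higher at 150 mg/kg/day (adjusted p = 0.00929), and REST, 1.41 higher (adjusted p = 0.00134). The count was 11 without animal 3 at 30 mg/kg/day. Against the same vehicle animals, 3 mg/kg/day gave 0 calls (1070 probe sets at an unadjusted p under 0.05), 30 mg/kg/day gave 1 and 400 mg/kg/day gave 126. For ACAA2 the differences from vehicle at 3, 30, 150 and 400 mg/kg/day were 0.26, 0.58, 1.50 and 1.51, and for FADS2 they were −0.70, 1.33, 3.46 and 4.23. For ACAA1 they were 0.83, 0.61, 1.03 and 0.54, and for NQO1 0.33, 0.55, 1.76 and 2.46. ACAA2 thus had like values at the upper doses and NQO1 its highest value at 400 mg/kg/day, while ACAA1 showed no order by dose.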

How the data were processed

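The deposited values are linear probe set intensities, which the authors made with MAS5 according to the submitters' processing notes (version not given in the sources used here). Trimmed means (2% at each end) of 150.06 to 150.08 per array showed a common scaling, which was kept. All 12558 probe sets other than 67 controls were tested. By the platform annotation 10943 named 1 gene, 545 several and 1070 none, and a gene was represented by its brightest probe set that names it alone. On log2(intensity + 16), a means model of 7 dose-by-day groups was fitted to all 23 arrays with limma 3.58.1 in R 4.3.3 (intensity trend, 16 residual and 7.06 prior degrees of freedom, two-sided, Benjamini-Hochberg), and SE comes from that fit. The number of arrays limits the precision.

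Tested on simulated data for 150 mg/kg/day against vehicle with 12558 probe sets, the fit recovered 1 of 67 probe sets changed by 0.5, 9 of 67 changed by 1 and 44 of 66 changed by 2 (log2), with 3 false calls. The comparison and the 40 gene lists (764 of 972 genes represented) were chosen with earlier results of these data known. Named were genes called against vehicle by a probe set that names 1 gene, called genes with large differences from the other doses, up to 4 members of each list by smallest p, members of 3 lists (mitochondrial oxidation, PPAR-alpha targets, metallothioneins) and reference genes, and some genes are not reported here. Alternatives covered the pseudocount, a filter at the 40th percentile, scaling, variance options, array weights, fewer arrays, the replicate block, the probe set summary and leaving out animals.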

Additional observations from a re-analysis of the deposited data

Results flagged for a closer look

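In the 4 animals at 150 mg/kg/day, TIMP1 and EXOSC2 each had 1 animal above the other 3 by a large part of the group's range: the gap was 0.85488 of the range for TIMP1, whose animals had 41.1, 34.1, 33.0 and 33.0, and 0.82902 for EXOSC2, whose animals had 36.9, 42.3, 41.0 and 77.4. These were 2 of 32 genes looked at, and chance gives about 1 in 20.

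By limma's direct test, these genes differed between doses in their brightest probe set, as log2 differences of 150 minus 400 mg/kg/day with n = 4 and 4. Higher at 150 mg/kg/day were MT1G (3.88), CYP2E1 (2.56), PZP (2.31), IGFALS (1.54), REST (1.48), MT1H (1.26), HGFAC (0.99), MT1F (0.94) and CFB (0.70). Lower were EXOSC2 (−1.90), ALDH1A1 (−1.28), ELOVL5 (−1.27), TXN (−0.87) and ITGA6 (−0.86). Dimmer probe sets of PHLDA2 (−1.56), ME1 (−1.39) and PPP1CA (−0.78) were also called lower. Against 30 mg/kg/day, MT1G (2.96) and REST (1.41) were higher.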

How the results depend on the processing

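Of the 34 calls, those of NQO1 and EXOSC2 were kept in all 7 fits that left out 1 animal and in 11 other fits. These fits do not include the probe set summary. The calls of ACAA2, HADHA and ACAA1 were kept in all 7 fits that left out 1 animal. Fewer probe sets were called (total, higher, lower) without the intensity trend (6, 5 and 1), in the 15-day arrays (19, 17 and 2), in only the groups compared (7, 6 and 1) and with the replicate block (13, 12 and 1, of which 13 were among the 34). Lower calls numbered 11 with a pseudocount of 64 and 11 with the filter. Leaving out 1 animal gave 11 to 30 calls, 10 to 28 higher and 1 to 8 lower. Against 400 mg/kg/day there were 37 calls with the filter, 51 with array weights, 10 without the trend, 2 in only the groups compared, 13 with the replicate block and 5 to 24 with 1 animal left out. Against 30 mg/kg/day there were 4 with a pseudocount of 64, 4 with equal array medians, 1 with the filter, 1 with array weights and 2 to 11 with 1 animal left out (leaving out animals of 30 and 400 mg/kg/day was chosen after seeing the data). ATXN10 changed sign to −0.075 with the median over its probe sets. The cause of these shifts was not tested. Same-numbered animals had correlations of −0.002, 0.018 and −0.011 of their deviations, so the numbers did not pair them. With 3 vehicle animals, changes of 1 on the log2 scale were mostly missed in simulated data.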

Other observations

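Arrays of each dose were compared with all 19 other arrays of the series, and these genes were chosen after their values were seen. At 150 mg/kg/day, 2 of 12558 probe sets lay above every other array and 3 below, against 27 and 26 at 400 mg/kg/day, 3 and 2 at 3 mg/kg/day, and 1 and 8 at 30 mg/kg/day. Those above were MT1G and REST. Those below were INHBA, an activin subunit, and NOS1AP, an adaptor of nitric oxide synthase, both dim, and SUB1, a transcription coactivator. SUB1 had 243, 256 and 201 in vehicle and 140, 146, 124 and 133 in the animals at 150 mg/kg/day.

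The liver methionine adenosyltransferase MAT1A had 420, 533 and 577 in vehicle and 893, 796, 901 and 951 at 150 mg/kg/day, separate groups with a difference of 0.79 ± 0.18 that limma did not call (adjusted p = 0.0555). Cystathionine beta-synthase, CBS, had 220, 132 and 166 against 410, 415, 266 and 364 (1.02 ± 0.31, adjusted p = 0.231). The list of 15 genes of methionine and methyl group metabolism held 0 calls and a median of −0.10, against 0.243% called higher and 0.0608% lower over all genes.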
